A study of Mus musculus with 10 samples.

Results

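The 9 genes described here encode the receptors through which vascular endothelial growth factors (VEGF) and angiopoietins act on blood vessels, with their closest partners. They are the VEGF receptors Flt1, Kdr and Flt4, the neuropilin co-receptors Nrp1 and Nrp2, the Tie receptors Tek and Tie1, the Tek ligand Angpt2 and the receptor phosphatase Ptprb. The genes were listed by name and taken from the deposited table through GENCODE mouse M21 symbols. All 9 were among the 14106 genes of that table. Brain endothelial cells (BECs) are the cells that line the vessels of the brain and form its barrier to the blood. Cortical tissue of female mice aged 1 year was dissociated with enzymes, CD31+CD45- cells were drawn out of it with CD31 microbeads, and their RNA was sequenced in bulk. The APP/PS1 group had 5 libraries from transgenic mice (APP/PS1, carrying the Swedish mutation of APP and mutant presenilin 1 lacking exon 9), a model in which Aβ accumulates in the brain, and the control group had 5 libraries from wild-type (WT) mice of the same age, sex and C3H/BL6 background. The sources used here do not say if the mice of a library were pooled, so the spread between libraries may be technical. Each group SD is the spread of its 5 libraries after the authors' correction for batch. The p values of the main model rest instead on the spread of the differences between control and APP/PS1 libraries paired by replicate number. For these p values limma draws the variance of each gene toward a value shared by all genes.

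VEGF-A binds Kdr (VEGF receptor 2), the main signalling receptor of blood endothelium, and binds more tightly to Flt1 (VEGF receptor 1), whose kinase is weak and whose soluble form traps the ligand. Flt4 (VEGF receptor 3) answers to VEGF-C and VEGF-D and is best known from lymphatic vessels, and the neuropilins hold VEGF or class 3 semaphorins beside these receptors. Tek, also called Tie2, is activated by angiopoietin 1 and keeps vessels quiet and tight. Angpt2 mostly opposes that ligand, Tie1 modulates Tek, and the phosphatase Ptprb (VE-PTP) removes phosphate from Tek and holds its activity down. In the mature brain the VEGF and Tie receptors are carried mainly by endothelium. VEGF signalling can loosen the blood-brain barrier while Tek signalling tightens it.

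Values are the deposited log2 CPM, that is log2 of counts per 1e6 after the authors' correction for batch. Each library converted back to between 22371766 and 126686149 adjusted counts in all, and since these are no longer reads no counting interval is given. The scarcest of the 9 genes, Angpt2, still had at least 700 adjusted counts in every library. Libraries with the same replicate number form a pair of 1 control and 1 APP/PS1 library. After the correction the deviations of both libraries of a pair mirrored each other, so the 10 libraries carry 5 independent differences and the overlap of the groups is best read beside the paired differences. A group SD therefore understates the spread of the paired differences, as for Nrp2 with 0.17 in control libraries against 0.34 over the pairs. As a check of the cell type, the 15 endothelial reference genes were all in the table, with Slc2a1 highest at 12.76 log2 CPM. Their median difference was 0.01. Their summed level ran from 14.83 to 14.94 log2 CPM in control libraries and from 14.86 to 14.97 in APP/PS1 libraries. None of these 15 passed the test, but none of all 14106 genes did, so the absence of calls does not bear on the cell type. None of the 6 lymphatic markers, Prox1, Lyve1, Ccl21a, Pdpn, Mmrn1 and Reln, was in the table, and the 3 markers of fenestrated vessels, led by Plvap at 6.74 log2 CPM, had a median difference of −0.02 with 0 called.

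Several of these receptors were among the most abundant transcripts of the BECs. Flt1 ranked 2 of 14106 genes by mean log2 CPM and Ptprb ranked 7. Kdr, Tek and Tie1 followed at ranks 85, 88 and 108, Flt4, Nrp1 and Nrp2 stood at ranks 481, 520 and 615, and Angpt2 stood at rank 5230. Levels of different genes were compared only per kilobase (kb) of merged exon. On this scale Flt1 was highest in control libraries, at 8.97 ± 0.03 log2 CPM per kb (SD, n = 5), followed by Ptprb at 8.44 ± 0.06, Tek at 7.89 ± 0.05, Tie1 at 7.72 ± 0.05 and Kdr at 6.99 ± 0.08. On this scale Flt1 lay above the signalling receptor Kdr in every library. Below a gap of 1.64 log2 units came Flt4 at 5.35 ± 0.08, Nrp1 at 4.99 ± 0.07 and Nrp2 at 4.78 ± 0.17, and Angpt2 was lowest at 3.19 ± 0.14.

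**Figure D1:**
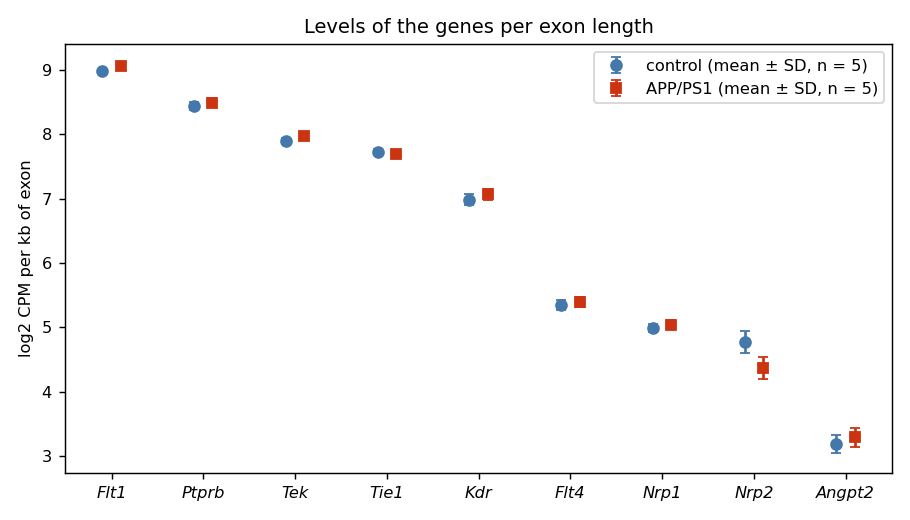
Level of each gene per kb of exon (log2 CPM per kb, y axis) in control (circles) and APP/PS1 (squares) libraries, as the mean with SD bars over 5 libraries each. Both groups show the same order from Flt1, at 8.97 in control libraries, to Angpt2, at 3.19, and Nrp2 is the gene with the widest distance between its 2 symbols.

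The order was stable between libraries. Of the 8 steps between neighbours, 7 had the same direction in 10 of 10 libraries. The exception was the step from Nrp1 to Nrp2, which held in 9 of 10 libraries, with a mean of 0.21 in control libraries and a range from −0.11 to 1.00 over all 10, so these co-receptors did not differ beyond their spread in the control group. The smallest of the other steps was Tek over Tie1, at 0.17 in control libraries and between 0.12 and 0.33 in single libraries. The mean order was the same in APP/PS1 libraries, from Flt1 at 9.06 ± 0.03 to Angpt2 at 3.29 ± 0.15 log2 CPM per kb (SD, n = 5). Gene counts do not separate the membrane and soluble forms of Flt1.

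The sequence just upstream of a gene holds part of what sets its level, and 4 upstream windows are shown for the most abundant receptor (Flt1), its signalling counterpart (Kdr), the co-receptor with the largest difference between groups (Nrp2) and the angiopoietin receptor (Tek). They are RefSeq promoter sequences of build GRCm38.p6, 150 bases long and 5′ to 3′ on the strand of the gene, and they end directly before the first base of the GENCODE gene, which for Flt1 and Tek is also the RefSeq start and for Kdr and Nrp2 lies 3 and 32 bases upstream of it. Capitals mark TATAAA, TGACGTCA and GGAA or its complement TTCC, searched on both strands, and their letters cannot overlap each other. Of the 9 genes, 7 matched the promoter table, and for 4 of them a full window lay outside the gene. Flt1 lies at chr5:147561604-147726011 on the minus strand and its window at chr5:147726012-147726161. Kdr lies at chr5:75932827-75978458 on the minus strand, with the window at chr5:75978459-75978608. Nrp2 lies at chr1:62703285-62818695 on the plus strand, with the window at chr1:62703135-62703284. Tek lies at chr4:94739289-94874976 on the plus strand, with the window at chr4:94739139-94739288.
Flt1: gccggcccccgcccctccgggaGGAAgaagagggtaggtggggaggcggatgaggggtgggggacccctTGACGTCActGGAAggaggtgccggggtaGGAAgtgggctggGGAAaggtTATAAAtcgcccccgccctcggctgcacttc
Kdr: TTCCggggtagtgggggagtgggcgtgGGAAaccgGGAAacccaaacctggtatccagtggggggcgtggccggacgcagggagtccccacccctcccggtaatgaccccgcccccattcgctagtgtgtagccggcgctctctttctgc
Nrp2: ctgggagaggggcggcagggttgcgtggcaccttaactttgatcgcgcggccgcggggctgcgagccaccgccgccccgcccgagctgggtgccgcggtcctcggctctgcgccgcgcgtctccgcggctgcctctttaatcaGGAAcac
Tek: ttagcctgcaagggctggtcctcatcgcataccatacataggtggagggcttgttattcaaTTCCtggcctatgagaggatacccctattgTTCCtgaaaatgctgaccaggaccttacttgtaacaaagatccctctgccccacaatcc

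The Flt1 window was the only one of the 4 with TATAAA, which began 31 bases before the gene, and the only one with TGACGTCA, the full cAMP response element, which began 81 bases before it. Among 27020 RefSeq promoters, windows of 150 bases held TATAAA in 8.08% and TGACGTCA in 1.44%. GGAA or TTCC, the core letters of sites for ETS factors, occurred 4 times in the Flt1 window, 3 times in the Kdr window, 2 times in the Tek window and 1 time in the Nrp2 window, and in 80.8% of all promoters. The windows of Nrp2, Flt1 and Kdr were rich in G and C, at 72.7%, 68.0% and 66.7% against a median of 54.0% over all promoters, while that of Tek had 48.7%. These letters are descriptions of sequence and were not tested for binding. The other genes lie at chr11:49609263-49652739 (Flt4, plus strand), chr8:128358604-128503363 (Nrp1, plus), chr4:118471191-118490061 (Tie1, minus), chr8:18690263-18741562 (Angpt2, minus) and chr10:116275523-116389535 (Ptprb, plus).

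The main comparison asked whether the expression of these receptors differed by genotype in the BECs. A difference was not shown for any of the 9 genes. In the limma model with the replicate pair as a block, 0 of the 9 passed an adjusted p of 0.05, and 0% of all 14106 genes did so, with a smallest adjusted p of 0.195. The values were higher in APP/PS1 for 7 genes and lower for 2, Nrp2 and Tie1, and their median difference was 0.05 log2 units against −0.00 over all genes. Nrp2 had the largest difference and was the only one of the 9 with an unadjusted p under 0.05, a level that 8.03% of all genes reached.

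None of the 9 genes was higher in all 5 pairs, where 2.99% of all genes were, and none was lower in all 5, where 5.00% were. Flt1, Nrp1 and Tek were higher in 4 of 5 pairs, against 20.7% of all genes that were higher in at least 4. Nrp2 was lower in 4 of 5, against 23.1% of all genes that were lower in at least 4. The ranges of the groups overlapped for all 9 genes, whereas 7.88% of all genes had ranges that did not overlap. These counts do not set the 9 genes apart from the background.

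**Figure D2:**
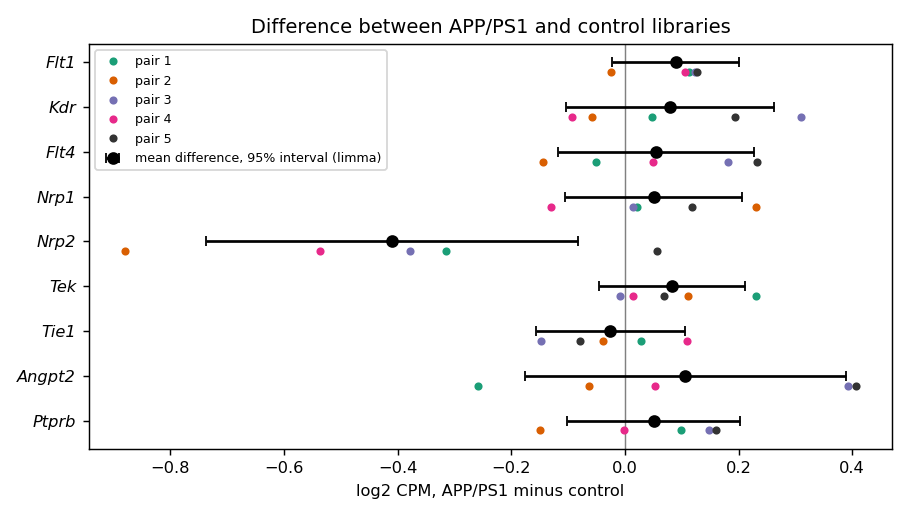
Difference between APP/PS1 and control (log2 CPM, x axis) for each gene, with the mean and its 95% interval from limma (large points and bars) and the 5 replicate pairs (small coloured points). Only the interval of Nrp2, from −0.74 to −0.08, lies off 0, and the intervals of the other 8 genes include it.

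Among the VEGF receptors, the trap receptor Flt1 had the smallest spread. Its control libraries measured 12.72, 12.78, 12.71, 12.72 and 12.71 log2 CPM in replicates 1 to 5, and its APP/PS1 libraries 12.83, 12.76, 12.84, 12.83 and 12.84. APP/PS1 values were higher in 4 pairs by 0.11 to 0.13 and lower by 0.02 in pair 2, whose control library was the highest of its group and whose APP/PS1 library was the lowest of its own. The difference was 0.09 (SE 0.05), or 1.06-fold with a 95% interval from 0.984 to 1.15, with an adjusted p of 0.731. The SE depended on the variance model and was 0.12 with a mean-variance trend, with an adjusted p of 0.889 from limma.

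Kdr, the main signalling receptor, had paired differences on both sides of 0, with an SD of 0.17. It measured 10.18, 10.23, 10.04, 10.24 and 10.10 log2 CPM in control libraries and 10.22, 10.17, 10.35, 10.15 and 10.30 in APP/PS1 libraries. It was higher in APP/PS1 in pairs 1, 3 and 5, most in pair 3 by 0.31, and lower in pairs 2 and 4, and the groups overlapped. The difference was 0.08 (SE 0.07), or 1.06-fold (0.931 to 1.20), with an adjusted p of 0.849. Flt4, the receptor for VEGF-C, averaged 8.39 ± 0.08 log2 CPM (SD, n = 5) in the control group and 8.44 ± 0.08 in the APP/PS1 group, while no lymphatic marker was in the table. Its paired differences ran from −0.14 in pair 2 to 0.23 in pair 5, and its mean difference of 0.05 had an adjusted p of 0.892.

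Of the neuropilins, Nrp2 had the larger difference. Nrp2, the co-receptor known from venous and lymphatic endothelium that binds VEGF-C and SEMA3F, measured 8.30, 8.57, 8.33, 8.41 and 8.10 log2 CPM in control libraries. In APP/PS1 libraries it measured 7.98, 7.69, 7.96, 7.88 and 8.16. The APP/PS1 library was the lower one in pairs 1 to 4, by 0.31, 0.88, 0.38 and 0.54 log2 units, and the higher one in pair 5 by 0.06, and the ranges overlapped only because the APP/PS1 library of pair 5 lay above the control library of that pair. The difference was −0.41 (SE 0.13, 95% interval −0.74 to −0.08), or 0.753-fold, with an adjusted p of 0.569. It did not pass the test, and 6.90% of all genes had a larger difference in either direction. Without replicate 2 it was −0.29, with an adjusted p of 0.346.

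Nrp1, the co-receptor for VEGF-A and SEMA3A, differed little. It measured 8.30, 8.19, 8.30, 8.37 and 8.25 log2 CPM in control libraries and 8.32, 8.42, 8.32, 8.24 and 8.37 in APP/PS1 libraries, with overlapping groups. The difference was 0.05 (SE 0.06, 95% interval −0.11 to 0.21) with an adjusted p of 0.887, and it was 0.01 without replicate 2. In pair 2, where Nrp2 was lower by 0.88 in APP/PS1, Nrp1 was higher by 0.23, its largest paired difference.

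**Figure D3:**
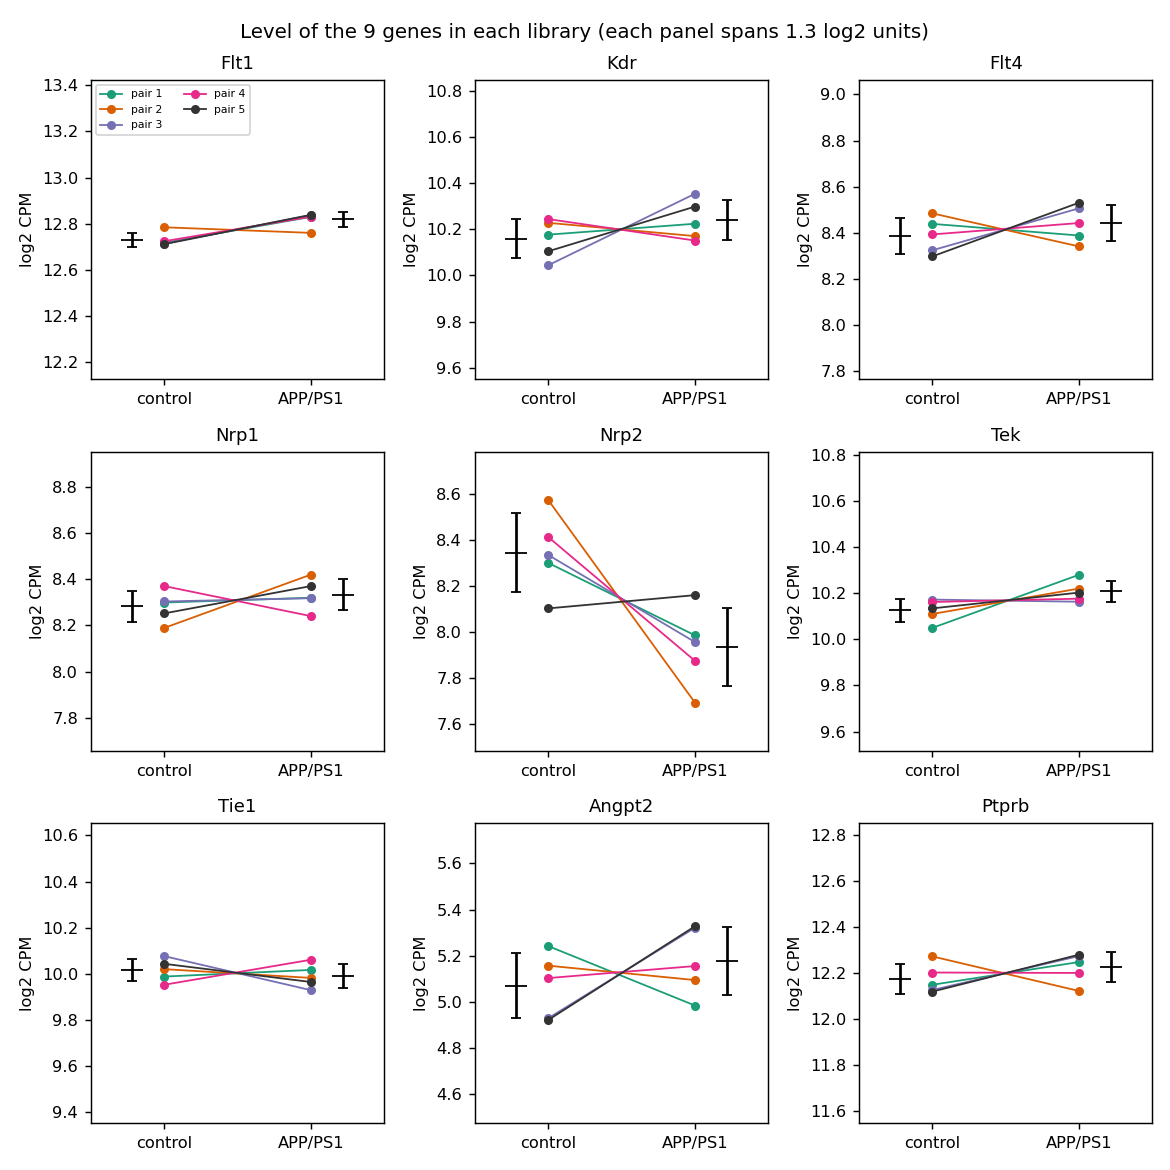
Level of each gene (log2 CPM, y axis, each panel spanning 1.3 log2 units) in the control and APP/PS1 libraries, with lines joining the libraries of a replicate pair and the mean ± SD (n = 5) beside each group. Nrp2 has the steepest lines, downward in 4 of 5 pairs, and the lines of the other genes cross in both directions.

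Markers of veins and of mural cells were also lower in APP/PS1 beside Nrp2, and their part in its difference was not tested. In bulk samples, fewer cells of a type and less RNA per cell cannot be told apart. The 6 venous endothelial markers were all lower in APP/PS1, 3 of them with an unadjusted p under 0.05 and 0 called, with a median difference of −0.29. Their summed level, led by Vwf at 11.64 log2 CPM, ran from 12.18 to 12.51 in control and from 11.89 to 12.22 in APP/PS1 libraries. By pair, their median differences were −0.37, −0.62, −0.49, 0.11 and −0.22, beside Nrp2 differences of −0.31, −0.88, −0.38, −0.54 and 0.06. In pair 4, single venous markers ran from −0.49 to 0.82. The 10 markers of mural cells, the pericytes and smooth muscle cells around the endothelium, were also all lower, 9 of them with an unadjusted p under 0.05 and 0 called, with a median of −0.76. Their summed level, led by Rgs5 at 8.50 log2 CPM, ran from 9.23 to 9.97 in control and from 8.29 to 9.23 in APP/PS1 libraries. By pair, the medians of the mural markers were −1.35, −0.33, −0.64, −1.47 and 0.02. The 6 arterial markers, led by Sema3g at 9.54 log2 CPM, had a median of 0.14, with 5 higher, 1 lower and 0 called.

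**Figure D4:**
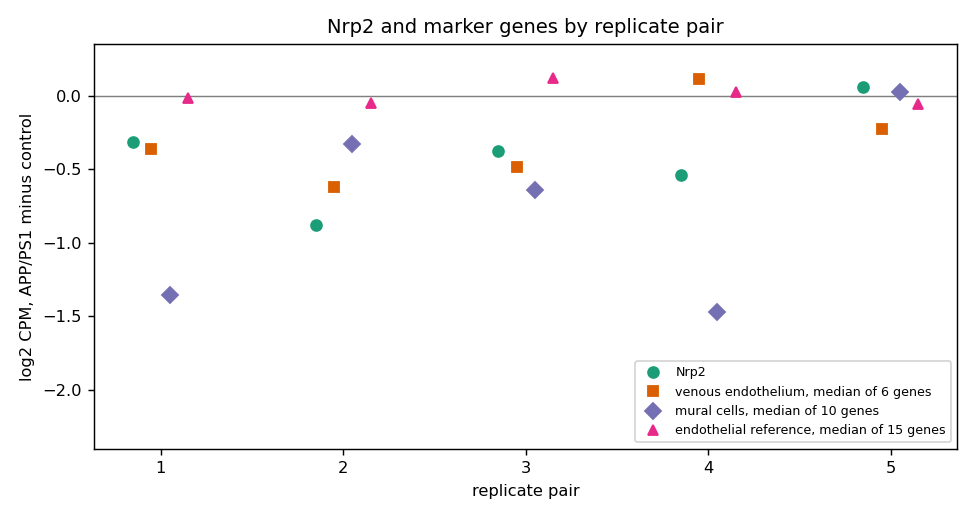
Difference between APP/PS1 and control (log2 CPM, y axis) in each of the 5 replicate pairs (x axis) for Nrp2 (circles) and for the median of 6 venous (squares), 10 mural (diamonds) and 15 endothelial reference genes (triangles). Nrp2 is lowest in pair 2, at −0.88, the venous markers in pair 2, at −0.62, and the mural markers in pair 4, at −1.47. The endothelial reference stays near 0.

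Of the angiopoietin system, the receptor Tek was slightly higher in 4 of 5 pairs. It measured 10.05, 10.11, 10.17, 10.16 and 10.13 log2 CPM in control libraries and 10.28, 10.22, 10.16, 10.18 and 10.20 in APP/PS1 libraries. The paired differences were 0.23 in pair 1, 0.11 in pair 2 and between −0.01 and 0.07 in the other 3. The difference was 0.08 (SE 0.05), or 1.06-fold (0.968 to 1.16), with an adjusted p of 0.794. Its partner Tie1 averaged 10.02 ± 0.05 log2 CPM (SD, n = 5) in the control group and 9.99 ± 0.05 in the APP/PS1 group, the smallest difference of the 9 genes in the deposited scaling. This difference of −0.03 (SE 0.05) had an adjusted p of 0.930, was negative in 3 of 5 pairs and turned to 0.01 without replicate 3.

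Angpt2, the ligand that endothelial cells store and release, had the lowest level and the widest interval after Nrp2. It measured 5.24, 5.16, 4.93, 5.10 and 4.92 log2 CPM in control libraries and 4.98, 5.09, 5.32, 5.16 and 5.33 in APP/PS1 libraries. It was higher in APP/PS1 in pairs 3 and 5, by 0.39 and 0.41, and by 0.05 in pair 4, and lower in pairs 1 and 2. The difference was 0.11 (SE 0.11, 95% interval −0.18 to 0.39) with an adjusted p of 0.872, and the groups overlapped. Ptprb, the phosphatase that restrains Tek, averaged 12.17 ± 0.06 log2 CPM (SD, n = 5) in the control group and 12.23 ± 0.07 in the APP/PS1 group. Its difference of 0.05 (SE 0.06), or 1.04-fold (0.932 to 1.15), had an adjusted p of 0.885. Kdr, Flt4, Angpt2 and Ptprb each had their largest positive paired differences in pairs 3 and 5 and negative ones in pair 2.

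The balance between partners was read as the log2 ratio of both genes within a library, which does not depend on how libraries were scaled. These ratios are not per length, were not tested and are given as descriptions over 5 pairs. The ratio of Nrp1 to Nrp2 was 0.00, −0.38, −0.03, −0.04 and 0.15 in control libraries and 0.34, 0.73, 0.36, 0.37 and 0.21 in APP/PS1 libraries. It was the only one of the 6 ratios whose groups did not overlap, and it was higher in APP/PS1 in all 5 pairs, by 0.46 ± 0.39 (SD of 5 paired differences) on average and by 0.30 without replicate 2. Among single genes 7.88% did not overlap and 2.99% were higher in all 5 pairs, and no such share was computed for ratios.

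The other ratios differed less between groups. The ratio of Flt1 to Kdr, the trap over the signalling receptor, averaged 2.57 ± 0.07 (SD, n = 5) in the control group and 2.58 ± 0.07 in the APP/PS1 group, a difference of 0.01 ± 0.15 (SD of the pairs), which was positive in 3 of 5 pairs. The ratio of Flt4 to Kdr differed by −0.03 ± 0.11. The ratio of Tie1 to Tek averaged −0.11 ± 0.06 in the control group and −0.22 ± 0.06 in the APP/PS1 group, lower in 4 of 5 pairs by 0.14 to 0.20 and higher by 0.09 in pair 4. The ratio of Ptprb to Tek differed by −0.03 ± 0.17 and that of Angpt2 to Tek by 0.02 ± 0.37, with pairs on both sides of 0.

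**Figure D5:**
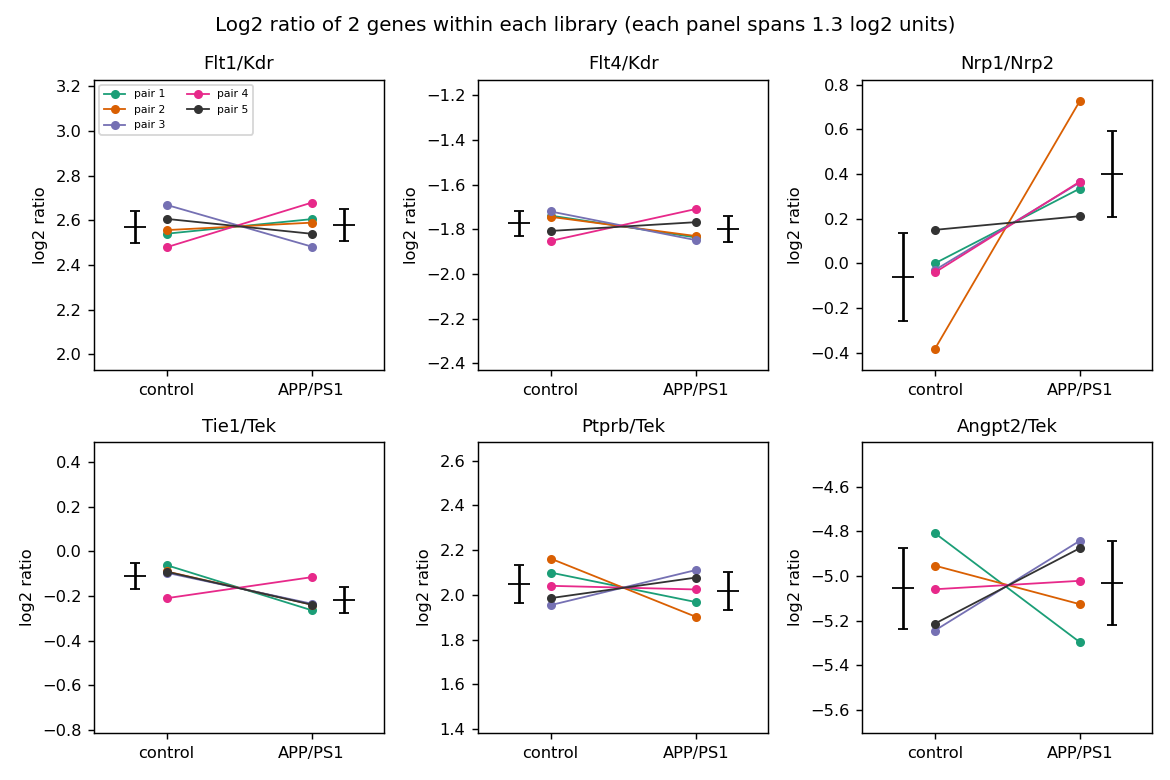
Log2 ratio of 2 genes within each library (y axis, each panel spanning 1.3 log2 units) for 6 pairs of partner genes, with lines joining the libraries of a replicate pair and the mean ± SD (n = 5) beside each group. The ratio of Nrp1 to Nrp2 is higher in APP/PS1 in all 5 pairs, with control libraries between −0.38 and 0.15 and APP/PS1 libraries between 0.21 and 0.73, and the other ratios overlap between groups.

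The wider pathway was read from 5 lists of 77 genes, of which 71 were in the table. Of these 71, 0 passed the adjusted threshold in either direction, and 8 had an unadjusted p under 0.05, which is 11.3% against 8.03% of all genes. Of these 8, 3 were higher and 5 lower in APP/PS1. In all 5 pairs, 2 genes were higher and 4 were lower, that is 2.82% and 5.63% against 2.99% and 5.00% of all genes, so these shares lie near the background, and the median difference of the 71 genes was 0.03 against −0.00 over all genes.

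The ligands had lower levels per kb than Kdr, which stood at 6.99 log2 CPM per kb in control libraries. Vegfc, the ligand of Flt4 and Nrp2, was highest at 4.67, followed by Vegfb at 2.31, Vegfd at 1.79, Vegfa at 1.57, Pgf at 0.06 and Angpt1, the activator of Tek, at −0.89, and Angpt4 was not in the table (these levels were singled out after the values were seen). Vegfb, which binds Flt1 and Nrp1, was lower in APP/PS1 in 5 of 5 pairs, with control libraries averaging 2.99 ± 0.05 and APP/PS1 libraries 2.80 ± 0.05 log2 CPM (SD, n = 5), a difference of −0.19 (SE 0.06) and an adjusted p of 0.553. Differences of the 6 ligands ran from −0.19 to 0.31 with a median of −0.05, which turned to 0.04 without replicate 3 and to 0.00 without replicate 5, and 0 were called. Of the semaphorins and plexins, the guidance cues and signalling partners of the neuropilins, 11 of 13 were in the table and 0 were called, with a median of −0.04. Sema3d was lower in 5 of 5 pairs, by 0.56 log2 units on average (SE 0.15, adjusted p of 0.537), at low levels of 1.13 ± 0.19 log2 CPM in the control and 0.57 ± 0.21 in the APP/PS1 group. Sema3e, the ligand of Plxnd1, was lower in 5 of 5 pairs with a difference of −0.22 (SE 0.06) and an adjusted p of 0.553.

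None of the partners, regulators and signalling genes of the receptors passed the test, which no gene of the table passed. All 14 partners and regulators, which include VE-cadherin (Cdh5) and the matrix inhibitor Timp3, were in the table, with 11 higher, 3 lower, 0 called and a median of 0.04. Of the genes of signal transduction, from Plcg1 to Nos3, 25 of 27 were in the table, with 18 higher, 7 lower, 0 called and a median of 0.03.

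Of the VEGF-induced and tip cell genes, 12 of 15 measured genes were higher, 3 lower and 0 called. Their median of 0.11 was the largest of the 5 lists and ran from 0.07 without replicate 1 or 4 to 0.21 without replicate 2. Egr3, an immediate early factor that VEGF induces, was higher in 5 of 5 pairs, averaging 6.68 ± 0.06 log2 CPM (SD, n = 5) in the control group and 6.91 ± 0.07 in the APP/PS1 group, with a difference of 0.23 (SE 0.06) and an adjusted p of 0.537. Immediate early genes are also induced by tissue dissociation, and beside this list all 11 genes of the dissociation response, led by Fos at 12.09 log2 CPM, were higher in APP/PS1, with a median of 0.10, 1 unadjusted p under 0.05 and 0 called. By pair, the medians of these 11 genes were −0.05, −0.03, 0.04, 0.50 and 0.24. Their summed level ran from 14.23 to 14.55 in control and from 14.41 to 14.72 in APP/PS1 libraries. Their part in the values of Egr3 was not tested. Aplnr, the apelin receptor of veins and sprouting endothelium, was lower in 5 of 5 pairs with a difference of −0.49 (SE 0.15) and an adjusted p of 0.569.

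The lists for most other brain and blood cells had negative medians. All measured markers of oligodendrocytes, fibroblasts and erythroid cells were lower in APP/PS1. So were 7 of 8 for astrocytes, 4 of 6 for oligodendrocyte precursors, 3 of 4 for neurons and 2 of 3 for choroid plexus. Of the microglia and leukocyte markers, 4 were higher and 4 lower. By pair, the medians of precursors, neurons, fibroblasts and choroid plexus were negative throughout, and those of the other lists lay on both sides of 0. Mag and Pcdh15 were at 0 adjusted counts in at least 1 library. Median differences were −0.98 for astrocyte markers (8 of 8 in the table, Gja1 highest at 7.22 log2 CPM), −1.20 for oligodendrocytes (6 of 8, Mal at 9.60), −0.62 for their precursors (6 of 7, Gpr17 at 4.33) and −0.61 for neurons (4 of 8, Stmn2 at 6.66). They were −0.66 for fibroblasts (3 of 6, Col3a1 at 1.40), −1.16 for erythroid cells (4 of 5, Hbb-bs at 5.52), −0.63 for choroid plexus (3 of 5, Aqp1 at 3.84) and −0.01 for microglia and leukocytes (8 of 9), with 0 genes called in any list. The highest genes Gja1, Aqp1, Gpr17 and Stmn2 went against most markers of their lists, with positive differences of 0.27, 0.43, 0.03 and 0.02. The highest genes Mal, Col3a1 and Hbb-bs had negative differences of −0.09, −0.38 and −1.19. In the precursor and neuron lists most markers lay far below the highest gene, at median levels of −0.35 and 0.86 log2 CPM. Among astrocyte markers, Aqp4 had 4 to 116 adjusted counts per library and S100b 6 to 184. The summed astrocyte level ran from 7.41 to 7.70 in control and from 7.42 to 7.73 in APP/PS1 libraries. Summed levels of precursors and fibroblasts were lower in APP/PS1 without overlap, and those of the other lists here overlapped. The medians of the erythroid markers by pair were −1.58, −3.33, −3.98, 0.83 and 2.35. Flt1, Kdr, Tek, Tie1 and Ptprb, at 9.93 log2 CPM or more in every library, differed by 0.09 or less on average beside these lists.

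For each of the 9 genes, the gene whose level ran most alike over the 10 libraries was sought among 10112 protein-coding genes. For Flt1 it was Top1 (Pearson r = 0.994), for Kdr Agps (0.993), for Flt4 Kdm3a (0.991), for Nrp1 Usp45 (0.996), for Nrp2 Pxdn (0.995), for Tek 9930111J21Rik1 (0.993), for Tie1 Tor2a (0.988), for Angpt2 Flvcr2 (0.989) and for Ptprb Prkd3 (0.991). The 10 values of a gene mirror each other within pairs, so each r rests on 5 differences and high values are common. For Flt1, 225 genes had an r over 0.9, for Ptprb 188 and for Nrp2 44.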

How the data were processed

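RNA of BECs was extracted with an RNeasy micro kit per the labels and sequenced on an Illumina HiSeq instrument. According to the paper's methods and the labels, the authors aligned reads to mm10 with STAR, counted them with HTSeq-count, removed weakly expressed genes and took log CPM with edgeR, and corrected for batch with ComBat. Tool versions are not given in the sources used here. The authors deposited log2 CPM of 14106 genes. With a prior count of 3, 100% of values converted back to whole adjusted counts (tolerance 0.05), which a correction of log CPM would in general not leave.

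R 4.3.3 and limma 3.58.1 (lmFit and eBayes) were fitted to the log2 values of all genes with genotype and replicate number as terms, with Benjamini-Hochberg adjustment over 14106 genes and a threshold of 0.05. The pairing follows the authors' batch plot of 5 batches with 1 control and 1 APP/PS1 library each, while the labels give 4. Deviations of paired libraries from their group means had correlations between −0.970 and −0.939 over 10873 genes with a mean above 2 log2 CPM, which the correction imposes, and the block counts the degrees of freedom it used. The fits were tested on simulated data.

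Members, gene lists and tests were chosen with earlier results of these data known. Named genes were the 9 members, from each pathway list any called gene and the 3 with the smallest p among genes differing alike in all 5 pairs, from each marker list its highest gene, and for each member the most alike gene. Values of 2 genes that this rule names are not reported here. Genes measured in both pathway and marker lists (Cdh5, Efnb2, Sema3g and Esm1) count in both. Positions and symbols are GENCODE mouse M21. Alternatives covered the block, scaling, prior count, limma-voom, a trend, a minimum level, the threshold and each replicate left out.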

Additional observations from a re-analysis of the deposited data

Results flagged for a closer look

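A gap of 1 library to the nearest other of its group that exceeded Dixon's critical value of 0.71 times the group's range was found in 4 of 30 groups, where chance gives about 1.5. Flt1 was highest in control replicate 2, at 12.78 against 12.72 log2 CPM in the next library, and lowest in APP/PS1 replicate 2, at 12.76 against 12.83. The log2 ratio of Tie1 to Tek was lowest in control replicate 4, at −0.21 against −0.10, and highest in APP/PS1 replicate 4, at −0.12 against −0.23. Since the values of a pair mirror each other, these are 1 departing pair for Flt1 and 1 for the ratio.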

How the results depend on the processing

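Without the replicate block, limma called 193 genes higher and 455 lower of 14106, and 3049 genes had an unadjusted p under 0.05 against 1133. None of the 9 genes was among the calls, with Nrp2 at an adjusted p of 0.0522 and Flt1 at 0.0764. Of the pathway lists, 6 of 71 genes were called in this fit, to be read beside the calls over all 14106 genes. This count for the lists was added after the data were seen. With the 4 batches of the labels 1 gene was called lower and Nrp2 had an adjusted p of 0.304, and with equal endothelial reference means 1 gene was called lower. Leaving out a replicate pair gave 0 to 1 genes called higher (1 without replicate 5) and 0 to 5 called lower (5 without replicate 2), with 748 to 2008 unadjusted p under 0.05, the most without replicate 2. Over the alternatives the difference of Nrp2 ran from −0.53 to −0.29 with an adjusted p of up to 0.929. Of 126 results of the 9 genes under alternatives, all but 1 kept their direction and none crossed the threshold, and the exception was Tie1, which ran from −0.059 without replicate 4 to 0.0051 without replicate 3. All 36 alternatives of the ratios moved by less than 1 SD, as did all 45 of the list medians, of which only that of the ligands changed sign, to 0.04 without replicate 3 and 0.0039 without replicate 5. Equal library medians changed the split of genes with an unadjusted p under 0.05 from 300 higher and 833 lower to 407 and 722, and equal endothelial reference means changed it to 171 and 890. The precision is set by the 5 pairs, which leave 4 residual degrees of freedom, and by the variance that limma shares over all genes. Counting error was not computed.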
